A study of Mus musculus with 18 samples.

Results

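The comparison set cultured fibroblasts with 2 copies of a progeria allele of Lmna (genotype Pro/Pro;Cas9/+) against fibroblasts with normal Lmna (+/+;Cas9/+), both after a mock guide RNA. It used 4 of the 18 libraries of the series, chosen by genotype and treatment in the sample titles: 2 mice per genotype, with the mouse as the replicate. All 4 cultures were primary fibroblasts from the tail tips of mice aged 2 months, at passage 5. Every mouse compared carried 1 Cas9 allele, written Cas9/+, and the promoter that drives Cas9 is not given in the sources used here. The mock guide, gMock, has no target in the genome and came on a lentivirus with an mCherry reporter, added with 4 µg/ml polybrene. More than 80% of cells were mCherry-positive, no cells were sorted or selected, and RNA was taken without DNase treatment. Cells from 2 Pro/+; +/+ mice (heterozygous for the progeria allele, without Cas9) under gMock are given beside the result and share the estimate of spread. For 1 of these heterozygous mice the name may stand for 1 animal or a pool. The other 8 libraries of the same 4 mice, with the Lmna guides gLmna-1 and gLmna-2, are further cultures of the same animals under another treatment. They are not repeats of gMock and add no mice.

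Lamin A and lamin C, the splice products of Lmna, are filament proteins that line the inside of the nuclear envelope. Progeria alleles of Lmna make a cryptic splice site in exon 11 active, so that the end of this exon is skipped and a permanently farnesylated lamin A, progerin, is made in place of the mature protein. Type I interferons are antiviral cytokines that act through the receptor chains IFNAR1 and IFNAR2, the kinases JAK1 and TYK2, and transcription factors such as STAT2 and IRF9, which act on promoters at interferon-stimulated response elements. Fibroblasts can respond both to interferon and to viral nucleic acid, such as that of a lentivirus.

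The deposited FPKM (reads scaled to transcript length and library depth) held 42622039 and 22905192 reads in Pro/Pro;Cas9/+ replicates 1 and 2, and 22424428 and 32463937 in +/+;Cas9/+ replicates 1 and 2, as recovered from the steps of the values. Xist lay between 23.2 and 27.5 FPKM in the 4 compared libraries, and the Y-linked genes Ddx3y, Kdm5d, Uty and Eif2s3y reached at most 0.04 FPKM in them, the same female pattern in both genotypes. One of the heterozygous mice had 19.5 FPKM of Ddx3y. The +/+;Cas9/+ gMock libraries stood apart from all other libraries of the series in the interferon response list. Its mean over tested members was 4.47 and 4.38 on the log2(FPKM + 1) scale in these 2 libraries and between 2.14 and 3.03 in the other 16. Each difference of an interferon gene below is a difference from these 2 libraries. In mitosis genes, +/+;Cas9/+ replicate 1 was low: Mki67, the Ki-67 proliferation antigen, was at 1.09 FPKM there, at 6.56 in replicate 2, and at 3.88 and 4.42 in Pro/Pro;Cas9/+. The fibroblast markers Col1a1, Col1a2 and Vim were at 724.7 FPKM or more in each compared library. The keratinocyte genes Krt5 and Krt1 and the muscle genes Myod1 and Myf5 were listed at 0 in all 4.

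Lmna was at 246 and 369.8 FPKM in Pro/Pro;Cas9/+ and at 381 and 317 in +/+;Cas9/+. The groups overlapped, with a log2 difference of −0.21 (SE 0.22, adjusted p = 0.956 by limma). The level of the transcript that represented Lmna thus did not differ beyond the spread between mice. This transcript does not reach the untranslated end found in lamin A alone, and a total over all Lmna transcripts was not computed. Without Pro/Pro;Cas9/+ replicate 1 the difference was 0.09 in place of −0.21. The heterozygous libraries were at 236 and 243 FPKM.

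Exon 11, which lies outside the transcript used for the level above and was read from another Lmna transcript, separated the genotypes. This exon spans chr3:88482346-88482612 (mm10, minus strand), and the untranslated end of exon 12, found in lamin A alone, lies at chr3:88481148-88482073. The ratio of the FPKM of exon 11 to that of the exon 12 region was 0.512 and 0.541 in Pro/Pro;Cas9/+, 1.02 and 1.00 in +/+;Cas9/+, and 0.707 and 0.699 in the heterozygous cells. The homozygous libraries were thus the lowest, the wild-type libraries the highest and the heterozygous ones between them, with no overlap. Of the reads on both regions, exon 11 held 12.8% (95% Wilson interval 11.9 to 13.8, from 660 reads against 4483) and 13.5% (12.4 to 14.6, from 487 against 3129) in Pro/Pro;Cas9/+. It held 22.8% (21.5 to 24.0, from 976 against 3312) and 22.4% (21.3 to 23.5, from 1241 against 4299) in +/+;Cas9/+. Set against exons 4 to 9, which lamin A and lamin C share, exon 11 stood at 0.217 and 0.202 in Pro/Pro;Cas9/+ and at 0.397 and 0.416 in +/+;Cas9/+. The exon 12 region did not separate the groups on that scale, at 0.423 and 0.372 against 0.387 and 0.414. With 2 mice against 2, an exact two-sided permutation test cannot go below p = 0.333, so these ratios are given without a test. The intervals cover counting error only.

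**Figure D1:**
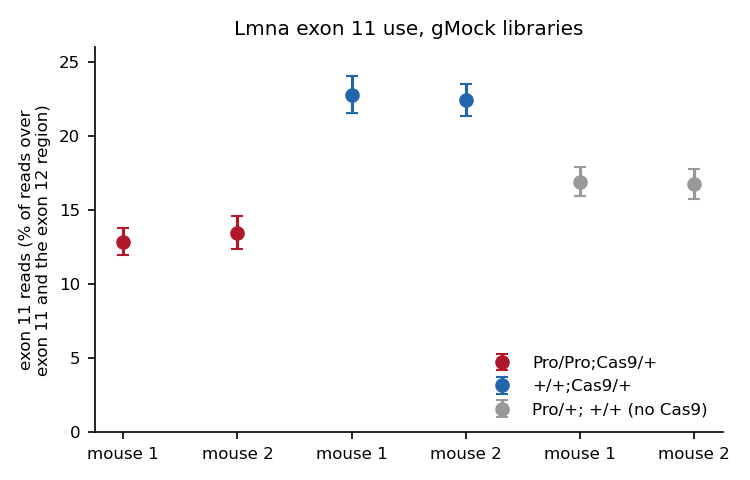
Share of exon 11 in the reads over Lmna exon 11 and the exon 12 region (y axis, percent, where points are single gMock libraries with 95% Wilson intervals). The 2 Pro/Pro;Cas9/+ libraries are at 12.8% and 13.5%, the 2 heterozygous ones at 16.9% and 16.7%, and the 2 +/+;Cas9/+ ones at 22.8% and 22.4%.

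Across the 12599 tested genes, 50 passed an adjusted p of 0.05 (0.397% of genes): 49 were lower in Pro/Pro;Cas9/+ (0.389%) and 1 was higher (0.00794%). Of the 49 lower genes, 15 were in the interferon response, interferon-inducible GTPase and class I antigen presentation lists described below. The other 34 were of mixed function, among them Ccl8, Cck, Dpt and Thy1. They also held Herc6, Trim30d, Parp9, Parp10, Dtx3l, Uba7 and Ube2l6, so the 15 are not a full count of interferon-related calls. At an unadjusted p under 0.05 there were 1308 genes (10.4%). The median log2 difference of all tested genes was 0.003. Both Pro/Pro;Cas9/+ libraries lay above both +/+;Cas9/+ libraries in 2040 genes (16.2%) and below both in 2330 (18.5%).

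The 50 calls depended on all 6 gMock libraries being in the fit. With only the 4 compared libraries, limma called 0 genes, with 1204 at an unadjusted p under 0.05. Leaving out any 1 library gave 0 calls, except that 2 lower genes were called without Pro/Pro;Cas9/+ replicate 2. The heterozygous libraries, which enter only the spread, were among those whose loss ended the calls. All 50 genes kept the sign of their difference under each alternative that tested them.

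The interferon response list held antiviral effectors, nucleic acid sensors and signalling genes. Of its 36 genes 33 were tested, and 7 were called lower (against 0.389% of all genes) and 0 higher. All 33 had both Pro/Pro;Cas9/+ libraries below both +/+;Cas9/+ libraries, against 18.5% of all genes. Their median log2 difference was −1.70, and −1.35 over all 36. In the interferon-inducible GTPases 3 of 9 tested genes were called lower (median −1.73, and −1.54 over all 15 in the list). In class I antigen presentation 5 of 14 were (median −1.01, and −0.97 over all 16). The share over all genes was 0.389%. All 9 and all 14 were lower without overlap. The filter of 1 FPKM in 2 libraries can be met by the 2 +/+;Cas9/+ gMock libraries alone, so counts over tested members are partly set by it. As these genes were known from earlier results to differ, the counts are a description. With RNA from whole cultures, fewer cells that express a gene and less RNA per cell cannot be told apart. Immune cell markers lay in the opposite order to these lists: their summed FPKM over all 16 listed genes was 695 and 837 in Pro/Pro;Cas9/+ and 284 and 79.6 in +/+;Cas9/+. Their part in the interferon result was not tested.

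Among the effectors, Oasl2, a member of the oligoadenylate synthetase-like family, was at 1.68 and 2.67 FPKM in Pro/Pro;Cas9/+ and at 32.3 and 30.1 in +/+;Cas9/+. It was 14.4-fold lower by group means, with a log2 difference of −3.36 (SE 0.26, adjusted p = 0.0278). Trim30a, a tripartite motif protein induced by interferon, was at 0.693 and 1.10 against 7.84 and 7.16 FPKM (−2.17, SE 0.17, adjusted p = 0.0278). Under gMock both genes were low in the 2 homozygous libraries and high in the 2 wild-type ones, and the heterozygous libraries (0.893 and 1.90 for Oasl2, 0.608 and 0.575 for Trim30a) lay on the homozygous side. Parp14, a mono-ADP-ribosyltransferase, was at 1.28 and 1.61 against 9.39 and 8.57 FPKM (−2.03, adjusted p = 0.0278). Ifi35, which binds other interferon-induced proteins, was at 16.6 and 18.3 against 38.8 and 36.7 (−1.07, adjusted p = 0.0455). Effectors often used to score an interferon response did not pass although their groups did not overlap. Isg15, a ubiquitin-like modifier, was at 19.2 and 38.8 FPKM against 189 and 201, a log2 difference of −2.79 (SE 0.54, adjusted p = 0.137). Ifit1, which binds viral RNA ends, was at 9.29 and 20.8 against 99.5 and 91.5 (−2.69, SE 0.42, adjusted p = 0.0874). In both, Pro/Pro;Cas9/+ replicate 2 lay above replicate 1 and far below either +/+;Cas9/+ library.

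The sensors of cytosolic viral RNA moved together. Ifih1 (MDA5), which detects long double-stranded RNA, was at 1.74 and 2.06 FPKM against 9.02 and 7.83 (−1.70, SE 0.15, adjusted p = 0.0343). Ddx58 (RIG-I), which detects RNA with a triphosphate end, was at 12.9 and 14.9 against 30.0 and 29.9 (−1.06, SE 0.11, adjusted p = 0.0396). Dhx58 (LGP2), their regulator, was at 2.18 and 1.86 against 9.45 and 9.15 (−1.77, SE 0.20, adjusted p = 0.0422). These 3 were lower in Pro/Pro;Cas9/+ than in the +/+;Cas9/+ gMock libraries, which stood apart. Ifih1 was at 1.82 and 1.86 FPKM in the heterozygous gMock libraries and at 2.31 to 3.11 in the +/+;Cas9/+ guide libraries. Mavs, the adaptor they signal through, was at 16.3 and 20.6 against 18.4 and 19.7 FPKM and overlapped (−0.05, adjusted p = 1.00).

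Upstream, the interferon genes themselves were near 0: Ifnb1 was at 0, 0.0572, 0.0579 and 0 FPKM in the 4 compared libraries, and Ifna2 and Ifng were listed at 0 in each. The receptor chains Ifnar1 (10.1 and 9.55 against 9.30 and 8.94) and Ifnar2 (40.5 and 43.7 against 44.7 and 40.8) had log2 differences of 0.10 and −0.02. The transcription factors Stat2 and Irf7 were lower without overlap but did not pass. Stat2 was at 8.92 and 9.49 FPKM against 25.9 and 29.7 (−1.49, adjusted p = 0.0759). Irf7, which amplifies interferon production, was at 3.97 and 9.45 against 34.2 and 30.8 (−2.21, adjusted p = 0.104). These pathway genes were picked after values were seen.

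The GTPases called lower all belong to the immunity-related group that acts on the vacuoles of intracellular pathogens. Iigp1 was at 0.647 and 0.610 FPKM in Pro/Pro;Cas9/+ and at 10.0 and 8.66 in +/+;Cas9/+ (−2.66, SE 0.15, adjusted p = 0.0278), from 41 to 825 reads per library. A gene was tested if it reached 1 FPKM in 2 or more libraries. Among the Cas9 libraries Iigp1 did so only in +/+;Cas9/+, where it was high, so its call adds no support. Igtp was at 3.00 and 3.40 against 14.8 and 14.7 (−1.91, SE 0.13, adjusted p = 0.0278). Irgm2 was at 5.68 and 6.34 against 20.3 and 21.2 (−1.64, SE 0.12, adjusted p = 0.0278). In all 3 the replicates of a genotype lay close together and far from the other genotype. The guanylate-binding proteins Gbp2 (5.92 and 11.1 against 32.6 and 26.04 FPKM) and Gbp3 (1.28 and 3.64 against 18.3 and 14.7) did not overlap and did not pass (adjusted p = 0.0874 and 0.104). Families of near-identical copies, among them these GTPases, the Oas genes, the Trim30 genes and the class I genes, can share reads, so the split between their members is uncertain.

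In class I antigen presentation, the called genes were parts of peptide supply and nonclassical class I chains. Psmb8 and Psmb10, catalytic subunits of the immunoproteasome, were at 4.44 and 5.43 against 23.6 and 22.3 FPKM (−2.02, adjusted p = 0.0343) and at 8.94 and 10.9 against 26.2 and 26.6 (−1.33, adjusted p = 0.0419). Tap2, which carries peptides into the endoplasmic reticulum, was at 12.1 and 11.99 against 26.1 and 24.6 (−1.02, adjusted p = 0.0375). H2-T22 and H2-T23 were lower than in +/+;Cas9/+ by 1.14 and by 1.13 on the log2 scale (adjusted p = 0.0419 for both). The abundant classical chain H2-K1 was at 59.5 and 85.1 against 151 and 125 FPKM, and B2m, the light chain of class I, at 552 and 947 against 1526 and 1377. Both were lower without overlap and did not pass (adjusted p = 0.161 and 0.303).

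The promoters of the called genes were searched because many of these genes are known targets of interferon. The window ran from 250 bases before to 50 bases after the start of each gene (RefSeq, GRCm38.p6), on both strands. A motif of the interferon-stimulated response element, 2 copies of GAAA with 2 bases of any kind between them, was found in 7 of 11 called genes of the 3 lists with a window (63.6%), in 4 of 24 other called lower genes (16.7%), in 3.73% of the 9833 tested genes with a window and in 3.99% of all 27025. The motif letters are a description and show no binding. As many listed genes are known interferon targets, the share in the 3 lists says nothing about the genotypes. The windows of Trim30a, in the lists, and Trim30d, outside them, are nearly the same. The windows below show the motif in 4 genes that were called lower, with the match in capitals, on the strand of the gene: Igtp (chr11:58199477-58199576, plus strand), Irgm2 (chr11:58214868-58214967, plus strand), Trim30a (chr7:104465175-104465274, minus strand) and H2-T23 (chr17:36032771-36032870, minus strand).
Igtp: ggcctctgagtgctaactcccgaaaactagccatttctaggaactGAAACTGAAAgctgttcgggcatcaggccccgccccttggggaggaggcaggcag
Irgm2: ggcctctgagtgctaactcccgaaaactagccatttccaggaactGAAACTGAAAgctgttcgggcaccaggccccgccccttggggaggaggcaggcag
Trim30a: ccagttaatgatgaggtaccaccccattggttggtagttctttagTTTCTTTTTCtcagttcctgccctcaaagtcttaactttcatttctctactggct
H2-T23: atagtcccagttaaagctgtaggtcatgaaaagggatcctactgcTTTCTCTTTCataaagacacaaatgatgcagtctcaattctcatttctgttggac
In Igtp and Irgm2 the match began at positions −34 and −64 from the start site and read the same, and the 2 windows had 98 of 100 bases in common. In Trim30a and H2-T23 the match was to the opposite strand, at positions −36 and −124.

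Whether the genotype difference was present in other cultures of the same mice differed between the called genes. Those cultures had an Lmna guide in place of gMock, so a change of guide and a change of culture cannot be told apart. In the libraries with gLmna-1 or gLmna-2, all 4 Pro/Pro;Cas9/+ libraries lay below all 4 +/+;Cas9/+ libraries in 5.35% of all tested genes. This was so for 3 of the 15 called genes of the interferon, GTPase and class I lists (H2-T22, Psmb10 and Tap2) and for 29 of the other 34 called lower genes. The others that overlapped were Dtx3l, Herc6, Parp9, Ppp1r14a and Samd9l. Not all of the 29 kept the size of their log2 difference. Uba7 was at −1.77 under gMock and −0.61 with the guides, and Ube2l6 at −1.91 and −0.58. Pdgfra, in contrast, was at −1.16 and −1.10. Cdsn, the 1 gene called higher, was also higher without overlap, as were 5.94% of all genes. Oasl2, at 30.1 and 32.3 FPKM in +/+;Cas9/+ under gMock, was at 2.59 to 4.97 in the guide libraries of the same mice, and at 0.626 to 3.56 in those of Pro/Pro;Cas9/+. Iigp1 was at 0.609 to 1.28 in the +/+;Cas9/+ guide libraries against 8.66 and 10.0 under gMock. Thy1, in contrast, was at 353 to 547 FPKM in +/+;Cas9/+ and 33.6 to 158 in Pro/Pro;Cas9/+ with the guides, which overlaps its gMock values in each genotype. A test of the difference between the genotype effect under gMock and that with the guides passed for 6 genes of 12599 (0.0476%), with 382 at an unadjusted p under 0.05. This test was chosen after the data were seen. Among the 6 were Ifitm3 (−1.0, adjusted p = 0.0323), a membrane protein that blocks viral entry, H2-K1 (−0.96) and Herc6 (−1.14), an ISG15 ligase. The called genes Oasl2 (−2.34, adjusted p = 0.124) and Iigp1 (−2.19, adjusted p = 0.0756) did not pass it, and limma called 0 genes when only the 12 libraries with Cas9 genotypes were fitted (283 at an unadjusted p under 0.05).

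**Figure D2:**
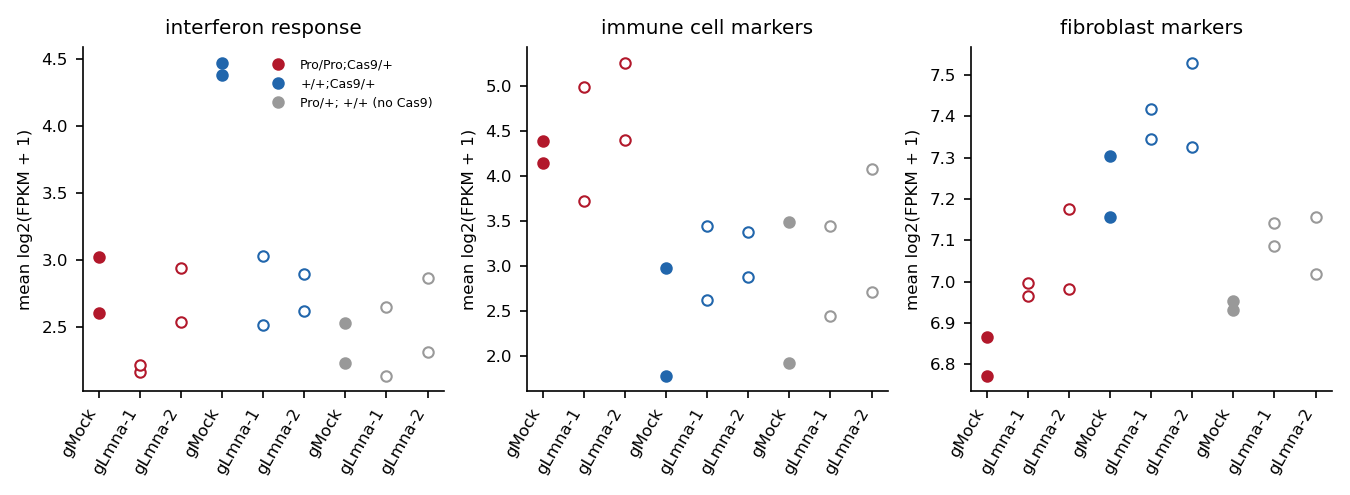
Mean log2(FPKM + 1) of the tested members of 3 lists in each of the 18 libraries (points, filled for gMock and open for the Lmna guides, with colours for genotypes). In the interferon response list the 2 +/+;Cas9/+ gMock libraries are at 4.47 and 4.38 and the other 16 between 2.14 and 3.03; in immune cell markers +/+;Cas9/+ replicate 2 is the lowest library, at 1.78, and replicate 1 is at 2.97, and in fibroblast markers the 2 lie within the range of the other libraries, at 7.30 and 7.16.

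**Figure D3:**
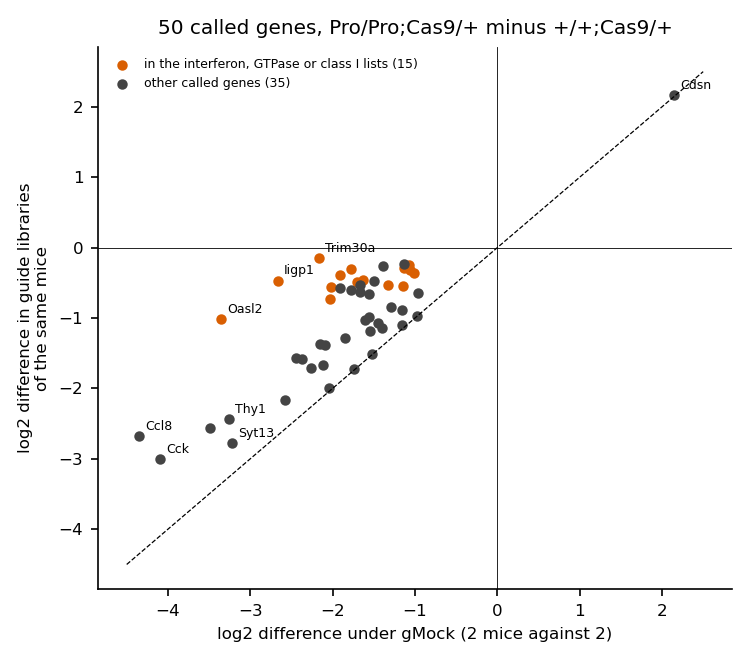
Log2 difference between Pro/Pro;Cas9/+ and +/+;Cas9/+ for the 50 called genes, under gMock (x axis) and in the guide libraries of the same mice (y axis, mean over 4 libraries per genotype), where the dashed line marks equal values. All 49 lower genes lie below 0 on both axes and nearer to 0 on the y axis, in the 15 genes of the interferon, GTPase and class I lists (orange) as in the other 34, while Cdsn, at 2.15 on the x axis, lies close to the line.

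Outside the interferon lists, the 2 largest lower calls were secreted signals. Ccl8, a chemokine that draws monocytes, was at 15.95 and 24.4 FPKM in Pro/Pro;Cas9/+, 656 and 271 in +/+;Cas9/+ and 43.97 and 35.7 in the heterozygous cells. It was 22.98-fold lower in Pro/Pro;Cas9/+ by group means, with a log2 difference of −4.35 (SE 0.43, adjusted p = 0.0375). Cck, the precursor of the peptide hormone cholecystokinin, was at 19.5 and 58.0 against 719.7 and 489.8 FPKM (−4.10, SE 0.49, adjusted p = 0.0473). Both were far below the wild-type range in each homozygous library, although Ccl8 varied within +/+;Cas9/+. Inhbb, the beta B subunit of inhibins and activins, was at 14.7 and 14.8 against 84.2 and 65.7 (−2.26, SE 0.14, adjusted p = 0.0278). It was 1 of 29 tested TGF-beta and BMP pathway genes and their only call (median of the list −0.06). The secreted phospholipase Pla2g2e was at 0.889 and 0.776 against 11.3 and 8.69 (−2.58, adjusted p = 0.0343), and the protease inhibitor Serpina3n at 3.53 and 4.43 against 35.02 and 19.2 (−2.44, adjusted p = 0.0458).

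Ccl8 was the only call among 31 tested senescence and secretory factors, where 11 genes were lower and 3 higher without overlap, against 18.5% and 16.2% of all genes (median −0.31). The related chemokines Ccl2 (220.1 and 260.2 FPKM against 598 and 496) and Ccl7 (277 and 235 against 638 and 587) did not overlap and did not pass (adjusted p = 0.0732 and 0.11). Unlike Ccl8, they were as high in the heterozygous cells as in +/+;Cas9/+, at 566 and 589 FPKM for Ccl2 and 668 and 465 for Ccl7. Cdkn2a, the locus of the cell cycle inhibitors p16 and p19Arf, was at 112 and 69.1 against 175 and 162 FPKM (−0.93, adjusted p = 0.223).

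Of 14 fibroblast markers, all tested, 2 were called lower, against 0.389% of all genes. Without overlap 8 were lower and 2 higher, against 18.5% and 16.2% of all genes (median −0.32). Thy1, a surface glycoprotein of fibroblasts, was at 41.9 and 34.6 FPKM in Pro/Pro;Cas9/+, 461 and 301 in +/+;Cas9/+ and 57.3 and 116 in the heterozygous cells. The groups lay 9.97-fold apart by their means (−3.26, SE 0.37, adjusted p = 0.0422), with the heterozygous libraries between them. Pdgfra, the alpha receptor of platelet-derived growth factor, was at 8.93 in both Pro/Pro;Cas9/+ libraries and at 22.3 and 20.1 in +/+;Cas9/+ (−1.16, SE 0.11, adjusted p = 0.0375). Lum (lumican) stood the other way, at 164 and 160.2 against 55.0 and 56.9, and did not pass (1.52, adjusted p = 0.340). Col1a1 (2402 and 1160 against 1070 and 1347 FPKM) and Vim (3344 and 4424 against 4701 and 4953) did not pass either.

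Among matrix genes both directions were seen, and the 2 calls were lower. Dpt (dermatopontin), a dermal protein that binds decorin and collagen fibrils, was at 12.3 and 7.68 FPKM against 147 and 97.4, a 12.2-fold difference of means (−3.49, SE 0.33, adjusted p = 0.0375). It was the only call among 29 tested proteoglycan and matricellular genes, of which 9 were higher and 9 lower without overlap (16.2% and 18.5% of all genes). Fn1 (fibronectin) was at 3035 and 2693 FPKM in Pro/Pro;Cas9/+ against 1040 and 1230 in +/+;Cas9/+ and did not pass (1.34, SE 0.24, adjusted p = 0.119). Efemp1 (fibulin-3) was at 84.8 and 93.8 against 491 and 309 FPKM (−2.12, SE 0.23, adjusted p = 0.0419), the only call among 24 tested elastic fibre and crosslinking genes (7 higher and 10 lower without overlap, against 16.2% and 18.5% of all genes). Fbln1 (fibulin-1), at 21.3 and 15.1 against 53.9 and 42.9, had an adjusted p of 0.0675. Plod2, which hydroxylates the telopeptides of collagen for crosslinking, was at 110 and 85.1 against 24.9 and 39.1 (1.60, SE 0.23, adjusted p = 0.0763).

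Other lower calls were of mixed function. Syt13, an atypical synaptotagmin, was at 1.62 and 2.86 against 34.2 and 23.8 FPKM, 13.0-fold apart by means (−3.22, SE 0.33, adjusted p = 0.0375). Cygb (cytoglobin), a haem protein of fibroblasts, was at 2.27 and 1.71 against 13.7 and 15.2 (−2.37, SE 0.18, adjusted p = 0.0278). Both were also lower without overlap in the guide libraries. Gsta4, which conjugates lipid peroxidation products to glutathione, was at 13.7 and 16.01 against 71.8 and 57.9 (−2.05, adjusted p = 0.0438) and was the only call among 22 tested NRF2 antioxidant genes (median −0.16).

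One gene passed in the higher direction. Cdsn (corneodesmosin), an adhesion protein of cornified skin cells, was at 40.4 and 27.2 FPKM in Pro/Pro;Cas9/+, 5.25 and 8.49 in +/+;Cas9/+ and 35.2 and 32.9 in the heterozygous cells. It was 4.92-fold higher in Pro/Pro;Cas9/+ by means (2.15, SE 0.26, adjusted p = 0.0493), and was no longer called with a pseudocount of 0.1 or with voom, among other settings. The keratinocyte list did not move with it. Only 3 of its 11 genes were tested. The summed level of all 11 was 6.10 and 10.8 FPKM in Pro/Pro;Cas9/+ and 12.1 and 10.6 in +/+;Cas9/+, and Krt5 and Krt1 were listed at 0 in all 4.

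The next 11 higher genes by p, among those at a mean of 2 FPKM or more without overlap, did not pass (adjusted p from 0.0532 to 0.107). Cavin4, a caveolar coat protein, was at 8.57 and 8.92 FPKM against 2.75 and 3.65 (1.22, adjusted p = 0.0532). Egfr, the receptor of epidermal growth factor, was at 13.5 and 12.1 against 6.35 and 5.80 (0.96, SE 0.12, adjusted p = 0.0570). Alpl, the alkaline phosphatase of mineralizing tissue, was at 11.9 and 6.82 against 1.26 and 1.85, and at 24.4 and 21.0 in the heterozygous cells (1.98, SE 0.27, adjusted p = 0.0604). Alpl was thus highest in the heterozygous cells, and Egfr was at 12.5 and 11.5 there, on the homozygous side. Tox, a nuclear HMG-box protein, was at 11.5 and 8.76 against 1.87 and 3.42 FPKM. The kinase Stk26 was at 4.52 and 4.18 against 0.594 and 1.44. The others were Plod2, the endocytic adaptor Dab2, the transcription factor Trps1, the heparan sulfatase Sulf1, the imprinted gene Peg10 and the amino acid transporter Slc1a4.

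**Figure D4:**
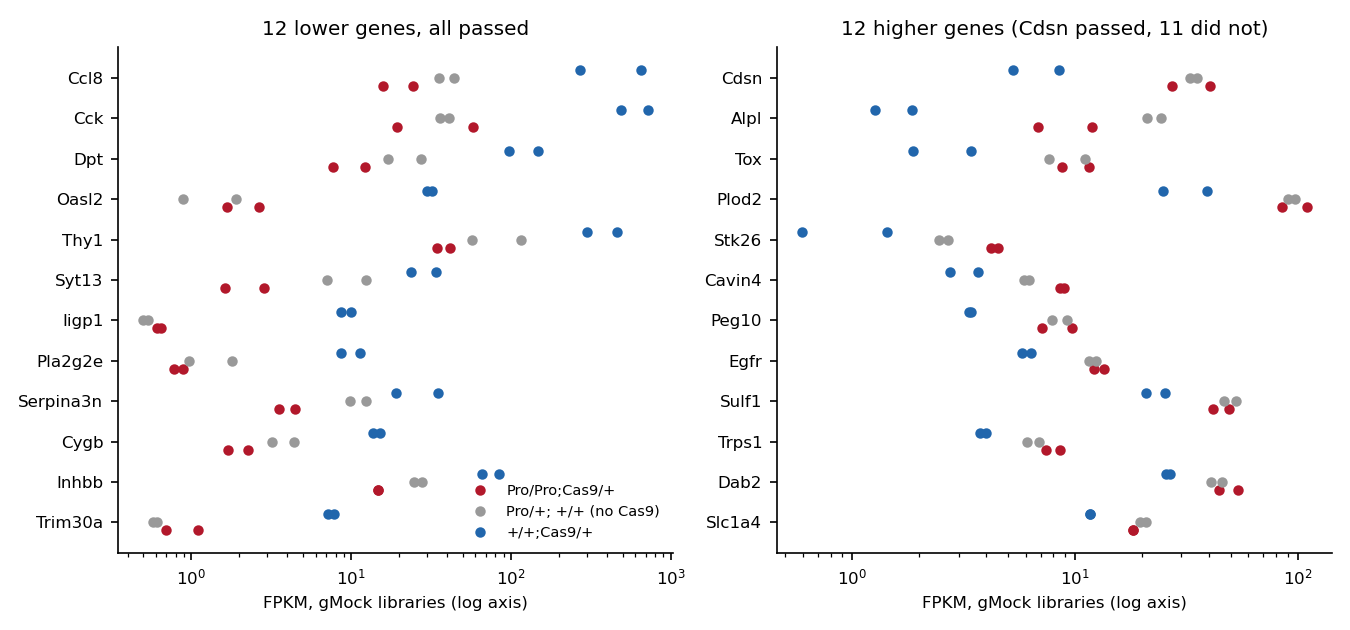
FPKM (log axis) of the 12 largest lower calls (left) and of 12 higher genes (right) in each gMock library, where red is Pro/Pro;Cas9/+, blue +/+;Cas9/+ and grey the heterozygous cells without Cas9. In each gene the 2 red points do not overlap the 2 blue ones. Of the higher genes only Cdsn passed, and Ccl8, at 15.95 and 24.4 against 656 and 271, has the largest log2 difference of the lower genes.

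Markers of immune cells were higher in Pro/Pro;Cas9/+ but not called. Of the 16 markers 14 were tested and 0 passed by limma or with voom. By limma 13 had an unadjusted p under 0.05, against 10.4% of all genes. All 14 were higher without overlap, against 16.2% of all genes (median 2.02). Lyz2, the lysozyme of macrophages, was at 452 and 565 FPKM in Pro/Pro;Cas9/+, 192 and 48.9 in +/+;Cas9/+ and 254 and 51.5 in the heterozygous cells (2.37, SE 0.89, adjusted p = 0.430). Mrc1, the macrophage mannose receptor, was at 3.50 and 3.78 against 0.641 and 0.344 (1.64, SE 0.29, adjusted p = 0.115). C1qa, a complement chain made by macrophages, was at 32.2 and 20.4 against 6.42 and 1.43 (2.65, SE 0.67, adjusted p = 0.233). In these 3 genes +/+;Cas9/+ replicate 2 was the lowest of the 4 compared libraries, and the heterozygous replicates were far apart. The class II genes Cd74 and H2-Aa were under the filter, at most 0.406 and 0.042 FPKM in the compared libraries.

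Markers of cartilage and bone also lay higher: 9 of 15 were tested, and 7 were higher without overlap (16.2% of all genes). The median was 1.41 (0.85 over all 15). By limma 0 passed, with 6 at an unadjusted p under 0.05 (10.4% of all genes) and 0 calls with voom. Col2a1, the main collagen of cartilage, was at 92.9 and 391 FPKM in Pro/Pro;Cas9/+ against 9.41 and 58.2 (2.95, SE 1.00, adjusted p = 0.365). Col11a1, a minor cartilage collagen, was at 45.6 and 29.9 against 4.44 and 11.4 (2.21, SE 0.40, adjusted p = 0.119). Ibsp (bone sialoprotein) was at 2.38 and 4.51 against 0.046 and 0.206 (1.94, adjusted p = 0.147). The regulators Sox9 (7.15 and 20.2 against 9.79 and 3.94) and Runx2 (8.16 and 14.3 against 12.1 and 11.2) overlapped. In 14 tested genes of mineralization and calcification, which share Alpl, Bglap, Ibsp, Runx2 and Sp7 with this list, 6 were higher and 1 lower without overlap, against 16.2% and 18.5% of all genes (median 0.39). Spp1 (osteopontin), also made by macrophages, was at 5318 and 4562 against 1570 and 1577 FPKM (1.65, adjusted p = 0.300).

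Position along the body axis was read from the posterior Hox genes. Of 12 tested, 4 were higher and 1 lower without overlap, against 16.2% and 18.5% of all genes (median 0.36). By limma 0 passed, with 4 at an unadjusted p under 0.05 (10.4% of all genes) and 0 calls with voom. Hoxa9 was at 3.41 and 4.91 FPKM against 1.62 and 1.84, and Hoxa10 at 15.2 and 12.4 against 7.61 and 8.33 (adjusted p = 0.160 and 0.207). Hoxb13, the most posterior B gene, was at 75.8 and 34.3 against 75.5 and 128 and overlapped.

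Lists tied to lamins and to cell growth held 0 calls by limma, and 0 with voom. Among 9 lamin and prelamin processing genes 0 had an unadjusted p under 0.05 (median 0.005). Zmpste24, the protease that cleaves prelamin A, was at 39.1 and 35.7 FPKM against 31.8 and 37.5. Of 15 tested nuclear envelope partners 1 had an unadjusted p under 0.05: Tor1aip1 (LAP1), at 23.4 and 29.1 against 42.6 and 39.9 (−0.64, adjusted p = 0.157). Of 31 p53 targets 2 had an unadjusted p under 0.05 (median 0.03), against 10.4% of all genes, and of 25 mitosis genes none did, with all overlapping. In the unfolded protein response 12 of 24 tested genes were higher without overlap (16.2% of all genes) and 0 had an unadjusted p under 0.05 (median 0.21). Its chaperone Hspa5 (BiP) was at 583 and 530.4 FPKM against 503 and 318.

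**Figure D5:**
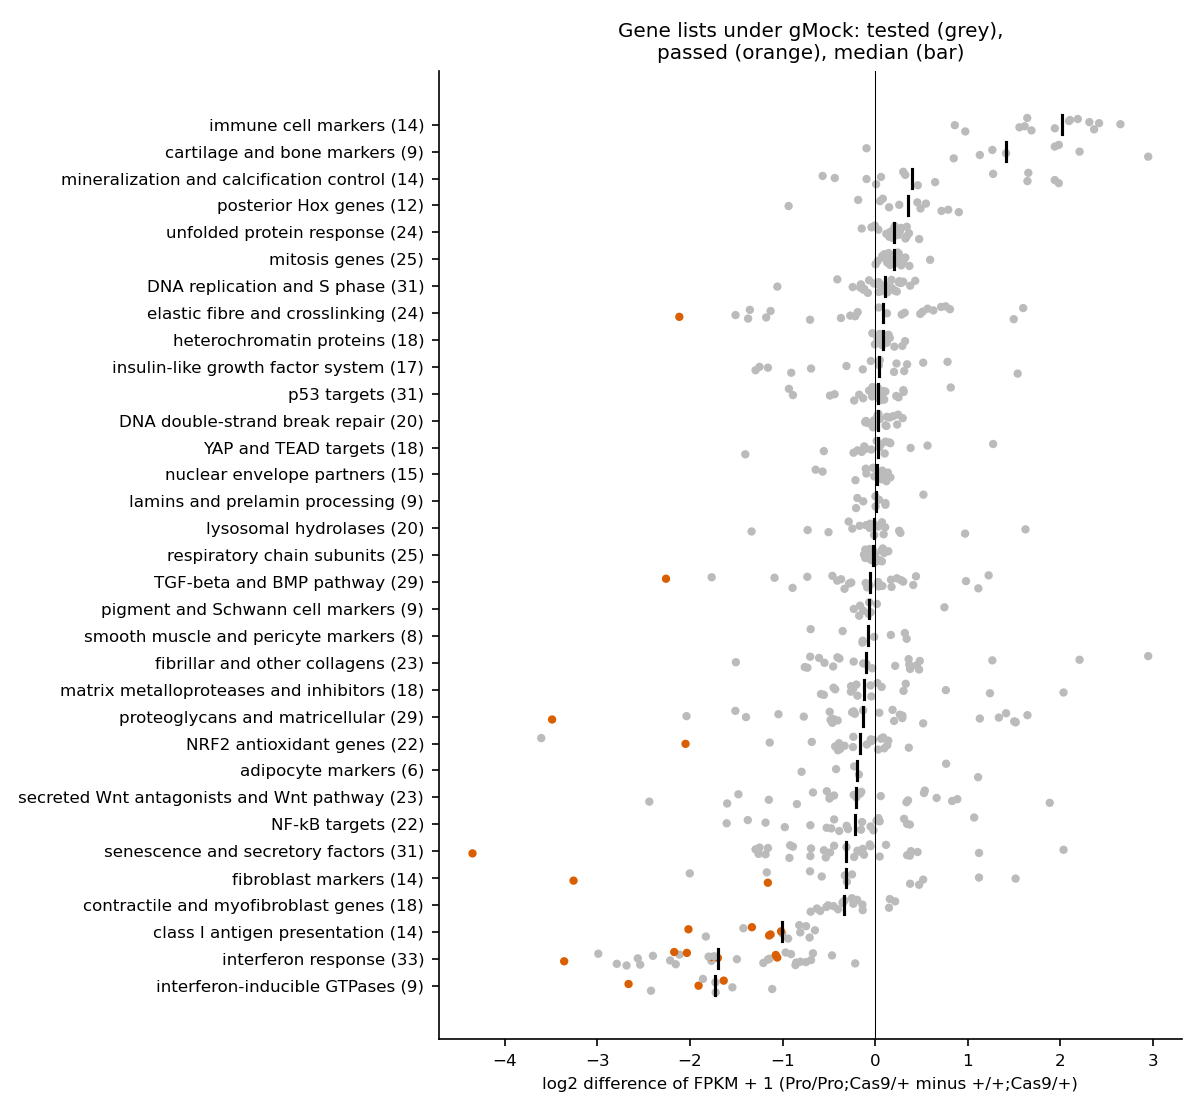
Log2 difference (Pro/Pro;Cas9/+ minus +/+;Cas9/+ under gMock, x axis) of each tested member of the gene lists with 5 or more tested genes, where orange points passed, grey points did not, bars are medians, and the number tested is in brackets. The 3 interferon and class I lists have the lowest medians (−1.73, −1.70 and −1.01), and immune cell markers and cartilage and bone markers the highest (2.02 and 1.41).

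Genes near Lmna were counted, since sequence flanking an engineered allele can differ between genotypes. Within 10 Mb of Lmna 220 genes were tested, 0 passed by limma and 26 had an unadjusted p under 0.05 (11.8%, against 10.4% of all genes). In 82 of the 220 the groups did not overlap (37.3%, against 34.7%).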

How the data were processed

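RNA of 18 libraries from 6 mice was measured; 4 libraries were compared, and 2 heterozygous gMock libraries shared the fit. The tools in the submitters' processing notes are FastQC 0.11.2, STAR 2.4.0k and HOMER, and the genome build is mm10. The deposited values are FPKM of transcript parts, made by the authors with HOMER per the file headers; the deposited part lengths in bases, another column, served to combine them. Strand was not stated, so overlapping and antisense genes cannot be separated. Of 404759 parts, 2531 without a positive length were left out. Parts were combined into 36795 transcripts, and each of 24445 symbols was represented by its transcript of highest mean level (names from RefSeq, 36474, and GENCODE, 194; 127 unnamed). The table held 6 further library columns that were not used. The design had expected one value per gene, so this combination was added. Reads per library were recovered from the steps of the FPKM values (100% of tested values whole within 0.05).

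The 12599 genes that reached 1 FPKM in 2 or more libraries were tested on log2(FPKM + 1) with limma 3.58.1 (lmFit, eBayes with trend) in R 4.3.3, 3 group means and 3 residual degrees of freedom. The pseudocount of 1 understates changes of low genes. p-values were adjusted by Benjamini-Hochberg over all tested genes, with a threshold of 0.05, and rest on 2 mice per genotype. The fits were checked on simulated data with independent noise in each library. The simulation held no mouse effect and no shift of whole libraries, so the check does not cover these. The difference between gMock and guide libraries was fitted on 18 libraries with the mouse as a block (6 residual degrees of freedom). Tables and figures used Python 3.11.15, numpy 2.4.6, pandas 2.3.3, scipy 1.17.1 and matplotlib 3.10.9.

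Named genes were Lmna, the 12 largest calls per direction (mean of at least 2 FPKM, no overlap, without sex-linked genes, gene models and small RNAs), filled up by p where fewer passed, and up to 3 members per list by p. Other members of the lists, Mki67, and the interferon pathway genes were named after their values were seen. The members and the 37 lists were chosen with earlier results of these data known. Replicate numbers follow accession order and were not used to pair mice across genotypes in the main fit. Some results are not reported here.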

Additional observations from a re-analysis of the deposited data

Results flagged for a closer look

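For 6 genes the genotype difference under gMock differed from that in the guide libraries of the same mice, by a limma interaction test chosen after the data were seen. The log2 difference of differences was −1.27 for Cfb, a complement factor (adjusted p = 0.0211), −1.24 for Gm4951, −0.86 for Adam33, −0.96 for H2-K1, −1.0 for Ifitm3 and −1.14 for Herc6 (adjusted p = 0.0323 for these 5). Cfb was at 2.43 and 1.62 FPKM in Pro/Pro;Cas9/+ and 7.11 and 7.30 in +/+;Cas9/+ under gMock, and at 1.32 to 4.98 and 2.49 to 4.01 with the guides. Adam33, a metalloprotease of mesenchymal cells, was at 3.24 and 1.11 against 20.3 and 21.9 under gMock and at 3.40 to 8.13 against 23.7 to 26.2 with the guides, so it was lower in Pro/Pro;Cas9/+ in both. Gm4951 was at 0.0623 and 0.165 against 1.87 and 1.74 FPKM under gMock, and at most 0.169 in any guide library of these mice. Among the Cas9 libraries it reached the filter of 1 FPKM only in the group where it was high, so its call adds no support. With only the 12 libraries of the Cas9 genotypes 0 genes passed.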

How the results depend on the processing

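In place of 50 calls (1 higher, 49 lower), there were 0 with only the 4 compared libraries, with a replicate block or with no filter on low values, 452 (86 and 366) with all 18 libraries and the mouse as a random block, 80 (3 and 77) with a pseudocount of 5, 42 (0 and 42) with a pseudocount of 0.1, 40 (2 and 38) with a filter of 5 FPKM, 11 (0 and 11) after median centring, 28 (0 and 28) with voom, 51 (2 and 49) with the longest transcript, 40 (0 and 40) without a trend, 47 (0 and 47) with robust eBayes and 34 (1 and 33) after quantile normalization. Without 1 library there were 0 to 2 calls, 0 higher and 0 to 2 lower. For the interferon response (7 calls) these were 0 with the 4 libraries, the block or no filter, 27 with all 18 libraries, 14 with a pseudocount of 5, and 4 with a filter of 5 FPKM or median centring. For the GTPases (3 calls) they were 0 in the same 3 settings, 9 with all 18 libraries and 5 with a pseudocount of 5. For class I (5 calls) they were 0 in the same 3 settings and after median centring, 12 with all 18 libraries, and 2 with voom or without a trend. Without 1 library these lists had 0, 0 to 1 and 0 calls. The interferon median of −1.70 became −0.98 with a pseudocount of 5 and −2.11 with voom, and that of the GTPases (−1.73) −2.18, −1.27 and −2.36 with pseudocounts of 0.1 and 5 and voom. Without 1 library the GTPase median ran from −2.12 to −1.41. Lmna was at −0.50 to 0.0878 without 1 library, above 0 only without Pro/Pro;Cas9/+ replicate 1. The 6 genes of the difference between gMock and guides became 0 with only the 12 Cas9 libraries and 0 to 22 without 1 library, 0 without any 1 of the 6 +/+;Cas9/+ libraries. The cause of these changes was not tested, beyond the smaller number of libraries or larger number of genes tested.

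The replicate block followed whether a sample title ends in an S number, which the labels do not explain. In the column headers of the deposited table every library has such a number, so its presence in a title marks no known batch. The deviations of same-numbered libraries correlated at −0.39, −0.08 and 0.00 between genotypes, so the numbers do not pair the mice. Some calls rested on few reads in their lowest compared library: 15 for Pla2g2e, 16 for Tbxa2r, 23 for Trim30d and for Ppp1r14a, and 41 for Iigp1. Among the Cas9 libraries Iigp1 and Trim30d reached the filter of 1 FPKM only in +/+;Cas9/+, where they were high.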
